A study of Homo sapiens with 9 samples.

Results

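The genes described here are 10 chaperones and effectors of the unfolded protein response of the endoplasmic reticulum (ER), HSPA5, HSP90B1, PDIA4, PDIA6, DNAJB9, HERPUD1, SDF2L1, CRELD2, MANF and XBP1, chosen by name out of 27615 genes listed for any library. The RNA came from MDA-MB-231, a long-established cell line of triple-negative breast cancer, in 9 libraries, 3 from cells given the DMSO vehicle, 3 from cells given rimonabant and 3 from cells given TXX-1-10. Rimonabant blocks CB1, a cannabinoid receptor, and TXX-1-10 is a derivative of rimonabant. How much of each compound these cells received, and for how long, is not given in the sources used here, so it is not known whether the compounds were compared at matched doses. The libraries are not described as separate cultures, so p-values measure the spread between these libraries, which may be technical.

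Proteins that enter the ER are folded by HSPA5 (BiP), the main ER Hsp70, with its DNAJ co-chaperones, by the ER Hsp90 HSP90B1 (GRP94) and by protein disulfide isomerases such as PDIA4 and PDIA6. When unfolded proteins build up, the sensors IRE1 (ERN1), PERK (EIF2AK3) and ATF6 start the unfolded protein response. IRE1 splices XBP1 mRNA into the form that encodes an active transcription factor, cleaved ATF6 acts on promoters of chaperone genes, and PERK slows translation while raising that of ATF4, whose targets include DDIT3 (CHOP). Counts per gene do not separate spliced from unspliced XBP1 mRNA, and RNA says nothing here of protein levels.

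The promoters are shown first, since the ER stress response element was defined in promoters of this gene family. This element (ERSE) was searched as CCAAT and CCACG with 9 bases between them, and its shorter relative ERSE-II as ATTGG and CCACG with 1 base between them, on both strands of the 250 bases before each RefSeq gene start (GRCh38.p14). All 10 genes had a promoter in the RefSeq table, and PDIA4, PDIA6 and XBP1 had a second one. ERSE was found before 5 of the 10 genes and in 26 of all 35116 promoters (0.074%). ERSE-II was found before HERPUD1 and SDF2L1 and in 18 of all promoters (0.0513%). The elements are given below in their own 5′ to 3′ direction, with the searched bases in capitals, to let the spacer bases be compared.
HSPA5: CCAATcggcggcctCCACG
XBP1: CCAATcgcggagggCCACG
HSP90B1, distal: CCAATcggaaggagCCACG
HSP90B1, proximal: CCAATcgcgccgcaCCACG
PDIA6: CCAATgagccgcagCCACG
CRELD2: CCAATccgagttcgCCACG
HERPUD1: ATTGGgCCACG
SDF2L1: ATTGGtCCACG

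The elements of HSPA5, XBP1 and PDIA6, the distal one of HSP90B1 and the ERSE-II of HERPUD1 read in the direction of the gene. Those of CRELD2 and SDF2L1 and the proximal one of HSP90B1 lie on the opposite strand. Counted from the base before the start, they span -66 to -48 in HSPA5, -52 to -34 in XBP1, -86 to -68 in PDIA6, -117 to -107 in HERPUD1, -80 to -62 in CRELD2, -188 to -178 in SDF2L1, and -194 to -176 and -89 to -71 in HSP90B1. The XBP1-binding core TGACGTGG was found in 0 of the 10 genes' windows and in 215 of all promoters (0.612%). The composite site TTGCATCA of ATF4 and CHOP was found before HERPUD1 alone among the 10 and in 271 of all promoters (0.772%). Only exact matches were counted, so near matches, as in the HSPA5 window, are not among them and the numbers of elements per gene may be too low. These matches describe letters in a window and not binding.

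The windows of 3 genes whose RNA rose with both compounds and of PDIA6, whose RNA fell with TXX-1-10, are printed up to the first base that GENCODE release 29 places in an exon of the gene. Capitals mark the matches. The HSPA5 window, chr9:125241344-125241593 on the minus strand, overlaps no annotated exon. The XBP1 window, chr22:28800598-28800819 on the minus strand, is shared in part with an exon of the gene Z93930.2. The HERPUD1 window is chr16:56931892-56932047 on the plus strand. The PDIA6 window, chr2:10812845-10813035 on the minus strand, lies within the span of the gene, before an internal start.
HSPA5: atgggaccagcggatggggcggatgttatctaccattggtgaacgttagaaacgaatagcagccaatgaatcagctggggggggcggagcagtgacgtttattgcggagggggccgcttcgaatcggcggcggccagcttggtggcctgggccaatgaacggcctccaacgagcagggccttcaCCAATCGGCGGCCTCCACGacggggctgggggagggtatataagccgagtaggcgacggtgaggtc
XBP1: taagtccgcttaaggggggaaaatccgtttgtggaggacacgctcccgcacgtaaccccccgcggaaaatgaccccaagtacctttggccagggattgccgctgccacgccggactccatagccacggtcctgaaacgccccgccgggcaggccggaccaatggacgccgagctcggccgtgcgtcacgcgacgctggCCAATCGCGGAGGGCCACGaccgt
HERPUD1: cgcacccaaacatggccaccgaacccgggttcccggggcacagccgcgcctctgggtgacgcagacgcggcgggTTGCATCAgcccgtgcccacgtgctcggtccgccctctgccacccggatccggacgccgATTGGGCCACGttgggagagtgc
PDIA6: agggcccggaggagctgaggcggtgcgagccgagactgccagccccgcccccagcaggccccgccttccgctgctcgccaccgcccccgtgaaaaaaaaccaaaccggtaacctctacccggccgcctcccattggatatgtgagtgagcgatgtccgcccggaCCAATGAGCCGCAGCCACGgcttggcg

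The library total behind the FPKM values ranged from 17078370 to 19277808 reads. Rimonabant replicate 1 and TXX-1-10 replicate 3 stood apart from the other libraries. Each library was set against the other replicates of its group, and the difference in log counts fell with gene length in these 2 (Spearman rho -0.694 and -0.692 across 4236 genes). It rose with length in the other rimonabant and TXX-1-10 libraries (rho 0.477 to 0.667), whose reference holds a library that stood apart, and was near 0 in the vehicle libraries (-0.025 to 0.028). In counts, replicate pairs with either of the 2 differed by a chi-square of 24.3 to 42.2 per degree of freedom, against 2.29 to 6.75 in the other pairs. All 10 genes had their highest TXX-1-10 value in TXX-1-10 replicate 3, and all 7 of the genes listed in rimonabant replicate 1 had their highest rimonabant value there. The same share over all genes is not given here, so this is not shown to be particular to the 10. DNAJB9, SDF2L1 and CRELD2 are not listed in rimonabant replicate 1, which is not a value of 0, and they were tested on the other 8 libraries. Of the 6 markers of this line, VIM lay between 224 and 329 FPKM (reads scaled by gene length and library total) and EGFR between 29.9 and 48.0 FPKM in the 9 libraries, and neither passed the test in any comparison, while SPARC was at most 0.558 FPKM in the 6 libraries that list it. With TXX-1-10 the other 3 fell against vehicle, with log2 fold changes of -1.23 for FN1, -0.78 for AXL and -0.52 for CD44, and with rimonabant FN1 (-1.03) and AXL (-0.22, adjusted p = 0.00574) fell and CD44 rose (0.25). Of the epithelial and hormone receptor markers, CDH1 was at 0 and ESR1 and PGR at most 0.0459 FPKM in the 4 libraries that list them. EPCAM lay between 4.47 and 5.37 FPKM in 7 libraries, and ERBB2 fell with TXX-1-10 (-0.39). KRT8 had means of 68.5 FPKM with vehicle, 40.9 with rimonabant and 36.3 with TXX-1-10, and KRT18 of 74.8, 44.1 and 46.2 FPKM, and both fell with each compound against vehicle. FN1, AXL, CD44, ERBB2, KRT8 and KRT18 thus differed between treatments, and their part in the results was not tested.

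With TXX-1-10, DNAJB9, HERPUD1, XBP1 and HSPA5 rose between 2.37-fold and 4.92-fold against vehicle, PDIA6, PDIA4 and CRELD2 fell, and HSP90B1, MANF and SDF2L1 did not pass the test (edgeR's quasi-likelihood test, Benjamini-Hochberg adjusted p under 0.05 over 9369 genes). Thus 4 of 10 rose, where 33.9% of all tested genes did, and 3 of 10 fell, where 39.8% did, shares near those of all genes. All 4 that rose passed a log2 fold change of 1, the threshold in the study, which 5.28% of tested genes passed upward. None of the 10 passed it downward, and 7.39% of tested genes did. The median log2 fold change was 0.06 over the 10 genes and -0.04 over all genes tested. Without the pair of libraries that stood apart, the same 4 rose and 4 fell, HSP90B1 being added.

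**Figure D1:**
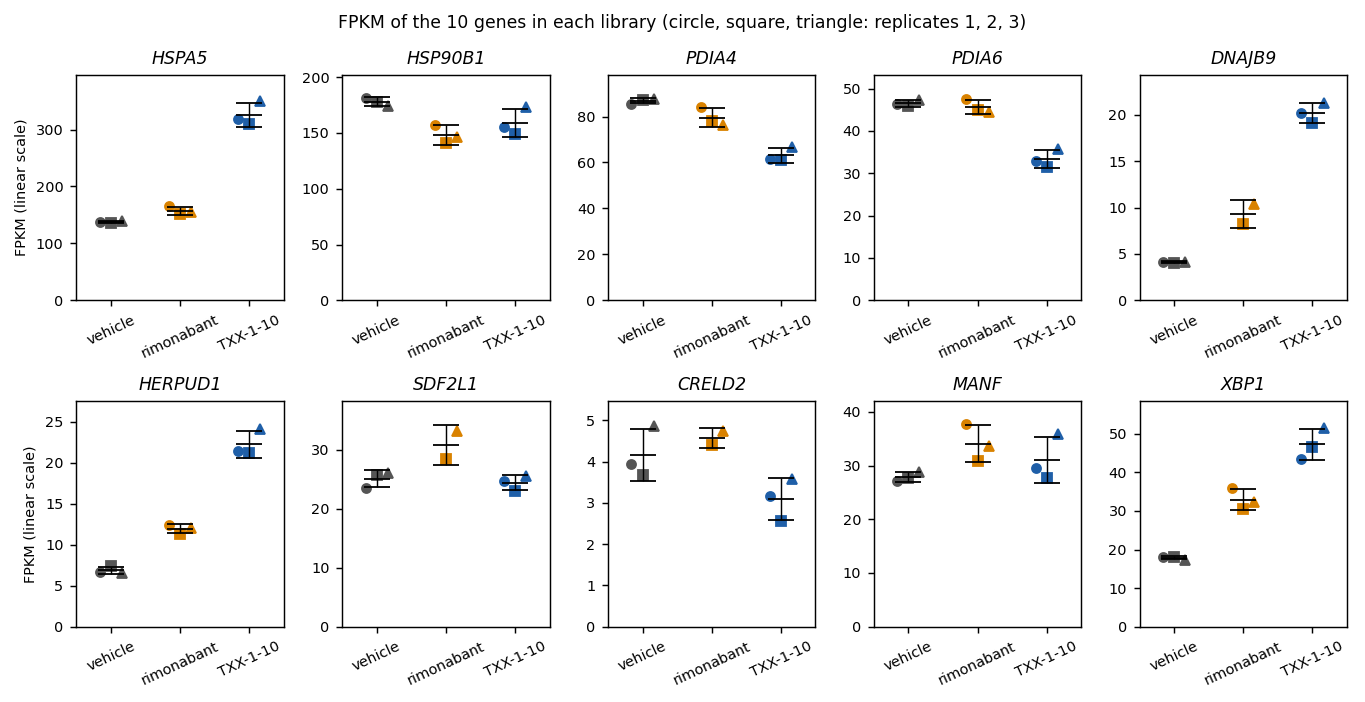
FPKM (vertical axis, linear, from 0) of each of the 10 genes in the vehicle, rimonabant and TXX-1-10 libraries. Points are libraries (replicates 1, 2 and 3 as circle, square and triangle) and bars are the mean and SD; HSPA5, DNAJB9, HERPUD1 and XBP1 step up from vehicle to rimonabant to TXX-1-10, while PDIA4 and PDIA6 are lowest with TXX-1-10.

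HSPA5, the ER Hsp70 (chromosome 9, 125234853 to 125241330), was at 137.8, 135.5 and 139.0 FPKM in the vehicle libraries. It was at 165.5, 152.0 and 154.5 FPKM with rimonabant and at 318.5, 309.1 and 349.8 FPKM with TXX-1-10. The groups did not overlap, and most of the rise lay between rimonabant and TXX-1-10. The log2 fold change against vehicle was 1.24 ± 0.06 (SE, adjusted p = 3.2e-08) with TXX-1-10 and 0.20 ± 0.06 (adjusted p = 0.0233) with rimonabant. TXX-1-10 exceeded rimonabant by 1.05 ± 0.06 on the log2 scale (adjusted p = 2.63e-07, edgeR). The rimonabant call was lost when rimonabant replicate 1 was left out (log2 fold change 0.16, adjusted p = 0.0607) and in 5 of the other 20 alternatives, with adjusted p up to 0.0836, while the TXX-1-10 call held in all 21.

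DNAJB9 (ERdj4), an HSPA5 co-chaperone and a known target of XBP1, changed most among the 10. It was at 4.15, 3.99 and 4.16 FPKM with vehicle, at 8.26 and 10.4 FPKM in the rimonabant libraries that list it, and at 20.2, 19.1 and 21.2 FPKM with TXX-1-10. The 3 treatments did not overlap. DNAJB9 rose 4.92-fold with TXX-1-10 (log2 fold change 2.30 ± 0.09, adjusted p = 7.85e-10) and 2.28-fold with rimonabant (1.19 ± 0.11, adjusted p = 7.44e-06). It was the only member past a log2 fold change of 1 with rimonabant. Exons of DNAJB9 overlap exons of PNPLA8 and THAP5 on the opposite strand, and whether the counting used strand is not given in the sources used here. PNPLA8 also rose (log2 fold change 1.13 with TXX-1-10 and 0.69 with rimonabant), and THAP5 had values of 0.38 and 0.12. Their mean counts were 586.7 and 524.7 with vehicle, against 195 to 203 for DNAJB9. With TXX-1-10 they were 1396 and 743.3, against 995 to 1109 for DNAJB9. Reads of these genes may thus not be fully told apart.

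HERPUD1, a membrane protein of the ER-associated degradation (ERAD) machinery, was at 6.66, 7.34 and 6.58 FPKM with vehicle. It reached 12.4, 11.3 and 12.0 FPKM with rimonabant and 21.4, 21.2 and 24.2 FPKM with TXX-1-10. Every library with a compound lay above every vehicle library, and the compounds did not overlap. The log2 fold change was 1.70 ± 0.07 with TXX-1-10 (adjusted p = 1.13e-08), 0.80 ± 0.07 with rimonabant (adjusted p = 2.36e-05) and 0.90 ± 0.07 between them (adjusted p = 1.95e-06).

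XBP1, the transcription factor gene whose mRNA IRE1 splices, was at 18.1, 18.1 and 17.4 FPKM with vehicle. It was at 36.0, 30.6 and 32.3 FPKM with rimonabant and at 43.6, 46.7 and 51.5 FPKM with TXX-1-10. The groups were again separate, but here the larger step lay between vehicle and rimonabant. The log2 fold change was 0.88 ± 0.08 with rimonabant (adjusted p = 2.01e-05), 1.40 ± 0.08 with TXX-1-10 (adjusted p = 7.99e-08) and 0.52 ± 0.08 between the compounds (adjusted p = 0.00018). The calls of DNAJB9, HERPUD1 and XBP1 held in all 3 comparisons under every alternative that gave a value for them.

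The pair of disulfide isomerases among the 10 fell with TXX-1-10. PDIA4 (ERp72) was at 85.5, 87.3 and 87.6 FPKM with vehicle, at 84.1, 78.2 and 76.2 FPKM with rimonabant and at 61.6, 60.9 and 66.9 FPKM with TXX-1-10. PDIA6 (P5), which also modulates IRE1 and PERK signalling, was at 46.3, 45.9 and 47.4 FPKM with vehicle, at 47.6, 45.0 and 44.5 FPKM with rimonabant and at 33.0, 31.5 and 35.7 FPKM with TXX-1-10. For both genes every TXX-1-10 library lay below every other library. PDIA4 fell by 0.46 ± 0.05 on the log2 scale with TXX-1-10 (adjusted p = 2.56e-05) and PDIA6 fell by 0.48 ± 0.05 (adjusted p = 1.94e-05), and both were lower than with rimonabant (adjusted p = 0.00043 and 5.33e-05, edgeR). Against vehicle, rimonabant gave log2 fold changes of -0.13 for PDIA4 (95% interval -0.25 to -0.01, adjusted p = 0.0794) and -0.03 for PDIA6 (-0.15 to 0.10, adjusted p = 0.727). Without rimonabant replicate 1 the PDIA4 value passed the test (-0.17, adjusted p = 0.0287).

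HSP90B1, the ER Hsp90, was the most abundant of the 10 per length in vehicle-treated cells, at 181.8, 178.0 and 173.9 FPKM. It was at 157.6, 140.7 and 146.2 FPKM with rimonabant and at 155.1, 149.2 and 173.4 FPKM with TXX-1-10. All 6 libraries with a compound lay below the lowest vehicle library, TXX-1-10 replicate 3 only just. HSP90B1 fell by 0.26 ± 0.07 on the log2 scale with rimonabant (adjusted p = 0.00993), and the TXX-1-10 difference of -0.16 ± 0.07 did not pass (adjusted p = 0.0539). It passed without TXX-1-10 replicate 3 (-0.23, adjusted p = 0.0054) or without rimonabant replicate 1 (-0.16, adjusted p = 0.0325), and it shrank under TMM scaling (-0.06, adjusted p = 0.349), under DESeq2 (-0.06, adjusted p = 0.336) and with the length correction (-0.07, adjusted p = 0.138). TXX-1-10 and rimonabant differed by 0.10 (95% interval -0.05 to 0.26, adjusted p = 0.209), a difference that TMM scaling raised to 0.19 (adjusted p = 0.0159). Exons of HSP90B1 overlap those of C12orf73 and TTC41P on the opposite strand, which had mean counts of 214.0 and 19.5 with vehicle, against 14058 or more for HSP90B1 in each vehicle library.

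CRELD2, SDF2L1 and MANF are small ER-resident factors, and none was past a log2 fold change of 1 in any comparison. CRELD2, a disulfide isomerase-like protein, was at 3.93, 3.67 and 4.86 FPKM with vehicle, at 4.41 and 4.75 FPKM with rimonabant and at 3.15, 2.55 and 3.57 FPKM with TXX-1-10. It fell by 0.43 ± 0.13 on the log2 scale with TXX-1-10 against vehicle (adjusted p = 0.0103) and was lower by 0.57 ± 0.14 than with rimonabant (log2 fold change -0.57, adjusted p = 0.00433, edgeR). The TXX-1-10 libraries lay below all others for CRELD2, but the call against vehicle was lost without vehicle replicate 3 (-0.30, adjusted p = 0.0639), and its exons overlap those of ALG12, which had 155.3 to 185.0 mean counts against 242 to 454 for CRELD2.

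SDF2L1, which works with HSPA5 and its co-chaperones to keep proteins soluble, was at 23.6, 25.7 and 26.1 FPKM with vehicle, at 28.4 and 33.2 FPKM with rimonabant and at 24.7, 23.0 and 25.6 FPKM with TXX-1-10. It rose with rimonabant (log2 fold change 0.29 ± 0.09, adjusted p = 0.018), and the TXX-1-10 value was -0.04 (95% interval -0.22 to 0.14, adjusted p = 0.666). The rimonabant value rests on 2 libraries and lost its call without rimonabant replicate 3 (0.18, adjusted p = 0.225) or vehicle replicate 1 (0.25, adjusted p = 0.0688), and the difference between the compounds (-0.34, adjusted p = 0.00611) was lost without rimonabant replicate 3 (-0.22, adjusted p = 0.111). MANF, a secreted ER-resident factor, was at 27.1, 27.7 and 28.9 FPKM with vehicle, at 37.7, 30.9 and 33.6 FPKM with rimonabant and at 29.6, 27.7 and 35.9 FPKM with TXX-1-10. MANF rose with rimonabant (0.29 ± 0.10, adjusted p = 0.04), a call lost without rimonabant replicate 1 (0.21, adjusted p = 0.0914) and in 6 of the other 20 alternatives, and its TXX-1-10 value of 0.15 (95% interval -0.07 to 0.38, adjusted p = 0.189) passed under TMM scaling (0.25, adjusted p = 0.0311) and was 0.04 without the pair of libraries that stood apart (adjusted p = 0.532).

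**Figure D2:**
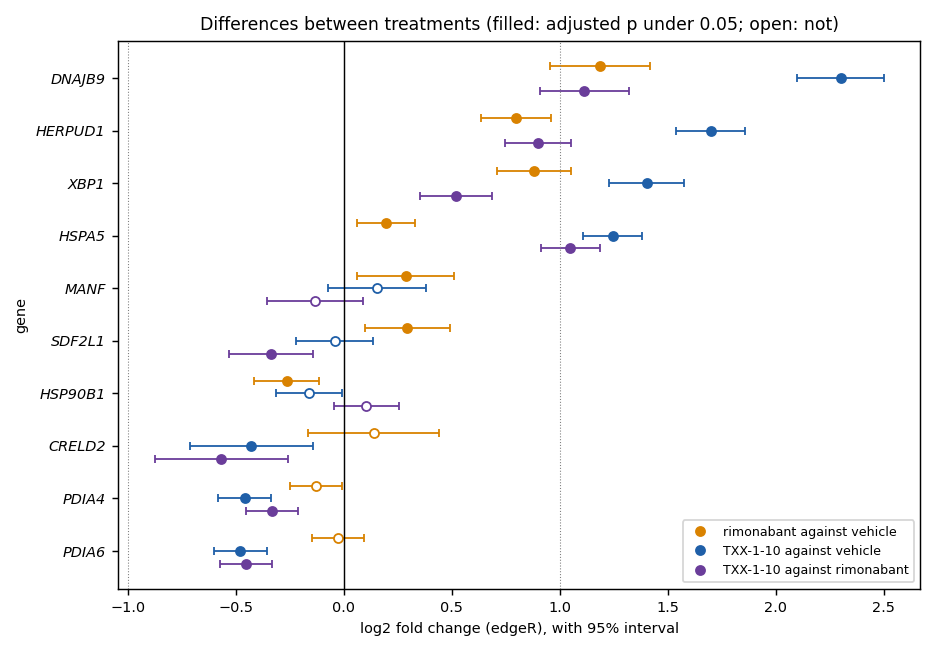
Log2 fold change (horizontal axis) of each gene in the 3 comparisons, with bars for the 95% interval of the edgeR fit and dotted lines at -1 and 1. Filled points have an adjusted p under 0.05; the TXX-1-10 values run from -0.48 for PDIA6 to 2.30 for DNAJB9, while the rimonabant values run from -0.26 for HSP90B1 to 1.19 for DNAJB9.

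Rimonabant against vehicle thus raised 6 of the 10 genes, DNAJB9, XBP1, HERPUD1, SDF2L1, MANF and HSPA5, where 24.2% of all tested genes rose, and lowered HSP90B1, where 21.9% fell. Past a log2 fold change of 1, DNAJB9 was 1 of 10 upward, where 0.747% of all genes passed, and 0 of 10 passed downward, where 0.758% did. Between the compounds, HSPA5, DNAJB9, HERPUD1 and XBP1 were higher with TXX-1-10 (4 of 10, against 26.2% of all genes) and PDIA4, PDIA6, SDF2L1 and CRELD2 were lower (4 of 10, against 34.2%). HSPA5 and DNAJB9 exceeded a log2 fold change of 1 (2.08% of all genes did), and 0 of 10 were below -1 (4.38% were). Leaving out rimonabant replicate 2 or TXX-1-10 replicate 3 left 1 of these 2. The comparisons share libraries, so their values are not independent of each other.

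The order of HSPA5 and HSP90B1 in level per length changed with both compounds. The ratio of HSPA5 to HSP90B1 FPKM within a library needs no library total, and it was 0.758, 0.762 and 0.799 with vehicle. It was 1.05, 1.08 and 1.06 with rimonabant and 2.05, 2.07 and 2.02 with TXX-1-10. HSPA5 was thus below HSP90B1 in every vehicle library and above it in every other one. The ratio of HSPA5 to PDIA4 went from 1.58 ± 0.03 (SD, n = 3) to 1.98 ± 0.04 with rimonabant and 5.16 ± 0.07 with TXX-1-10, and that of HSPA5 to PDIA6 from 2.96 ± 0.02 to 3.44 ± 0.05 and 9.75 ± 0.08. For these 3 ratios each pair of treatments was separated without overlap. The two-sided exact permutation test gave p = 0.1 for each, the smallest p that 3 against 3 allows. Most of these separations follow from FPKM values given above, where HSPA5 was higher and the other gene lower without overlap. This holds for all 3 ratios in TXX-1-10 against vehicle. It also holds for HSP90B1 and PDIA4 in rimonabant against vehicle and for PDIA4 and PDIA6 between the compounds. There the test adds no separate evidence.

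**Figure D3:**
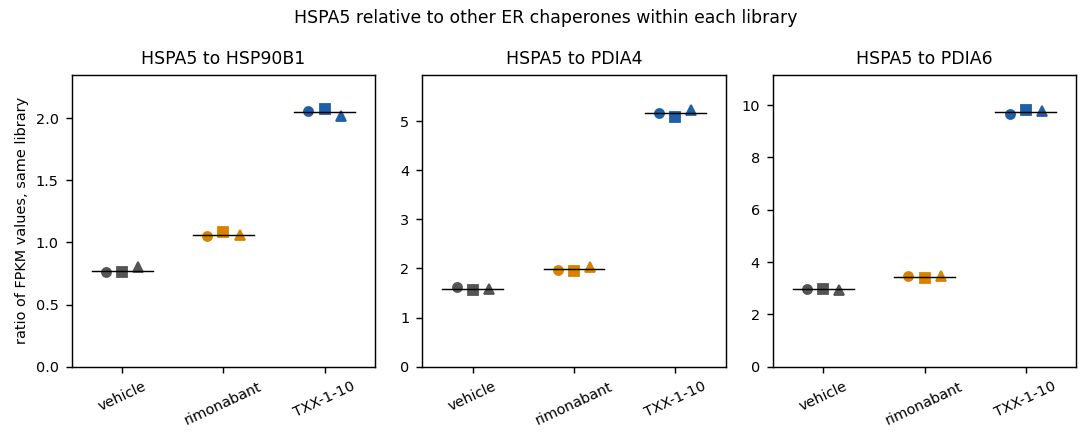
Ratio of HSPA5 FPKM to that of HSP90B1, PDIA4 and PDIA6 in the same library (vertical axes, linear, from 0), by treatment. Points are libraries and lines are means; the HSPA5 to HSP90B1 ratio is 0.773 with vehicle, 1.06 with rimonabant and 2.05 with TXX-1-10.

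HERPUD1 and DNAJB9 had larger fold changes than HSPA5 with both compounds. The ratio of HERPUD1 to HSPA5 was 0.0499 ± 0.0037 with vehicle, 0.0758 ± 0.0017 with rimonabant and 0.0684 ± 0.0009 with TXX-1-10 (SD, n = 3). The ratio of DNAJB9 to HSPA5 was 0.0298 ± 0.0004 with vehicle (n = 3), 0.0608 ± 0.0091 with rimonabant (n = 2) and 0.0620 ± 0.0014 with TXX-1-10 (n = 3), and the compounds overlapped (exact permutation p = 0.8, two-sided). The ratio of PDIA6 to PDIA4 was 0.536 ± 0.009 with vehicle and 0.529 ± 0.010 with TXX-1-10 (SD, n = 3), with overlapping libraries (exact permutation p = 0.5). With rimonabant it was 0.575 ± 0.008, above every library of the other treatments (exact permutation p = 0.1 against each, the smallest possible).

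Set beside the promoters, genes with an exact ERSE did not share a direction with TXX-1-10. HSPA5 and XBP1 rose, PDIA6 and CRELD2 fell, and HSP90B1, which has 2 such elements, did not pass the test. With an ERSE-II, HERPUD1 rose and SDF2L1 gave a log2 fold change of -0.04. DNAJB9, with the largest rise, had no exact match to any of the 4 motifs in its window. That window lies wholly in exons that GENCODE gives the gene, as does the window of HSP90B1. Bases before the GENCODE starts of these genes were thus not searched, and both HSP90B1 elements lie within its GENCODE exons. In the MANF window 244 of the 250 bases lie in exons of the gene.

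Other genes of the pathway were taken from lists put together by function, with earlier results of these data known. The counts and medians of a list thus describe it and are no test of it. Their counts stand beside those of all tested genes, of which 33.9% rose and 39.8% fell with TXX-1-10 (median log2 fold change -0.04) and 24.2% rose and 21.9% fell with rimonabant (median 0.005). ERN1 (IRE1) was the UPR sensor gene with the largest rise, from 1.76 ± 0.09 FPKM (SD, n = 3) with vehicle to 2.48 ± 0.22 with rimonabant (n = 2) and 6.14 ± 0.74 with TXX-1-10 (n = 3), and its log2 fold change was 1.80 with TXX-1-10 (adjusted p = 8.01e-09) and 0.49 with rimonabant (adjusted p = 0.00388). EIF2AK3 (PERK) rose by a log2 fold change of 0.83 and 0.61, and ATF6 by 0.41 and 0.19 (all adjusted p at most 0.00979). CREB3L2, a transcription factor related to ATF6, and MBTPS2, the site-2 protease that cleaves ATF6, fell with TXX-1-10 by 1.25 and 1.05 on the log2 scale, and with rimonabant by 0.86 and 0.33. Of the 10 sensors and processing proteases, 4 rose and 4 fell with TXX-1-10 and 3 rose and 2 fell with rimonabant, shares near those of all genes.

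The medians of the PERK arm genes lay above those of the 10 chaperones and effectors. The name of that list gives its place in the pathway, and whether PERK raised these RNAs was not tested. All 11 tested genes of that list rose with TXX-1-10, where 33.9% of all tested genes did. Of the 11, 9 rose past a log2 fold change of 1, where 5.28% of all genes did, and the median was 1.92. With rimonabant 9 rose and 1 fell, against 24.2% and 21.9% of all genes. Past a log2 fold change of 1 upward there were 6, against 0.747% of all genes, and the median was 1.15. DDIT3 (CHOP), the transcription factor linked to cell death in prolonged ER stress, went from 11.1 ± 0.3 FPKM with vehicle (n = 3) to 21.7 ± 0.8 with rimonabant (n = 2) and 125 ± 17 with TXX-1-10 (n = 3). TRIB3, a pseudokinase target of CHOP, had log2 fold changes of 3.48 and 1.28, SESN2, a stress-induced regulator of mTORC1, of 3.01 and 1.93, and NUPR1, a stress-induced chromatin protein, of 4.94 and 2.29 with TXX-1-10 and rimonabant. NUPR1 was low with vehicle, at 0.431 ± 0.079 FPKM. ATF4 itself rose with both compounds, by 0.62 and 0.58 on the log2 scale (adjusted p = 7.72e-05 and 0.000414), with a difference of 0.03 between them (95% interval -0.15 to 0.22, adjusted p = 0.747). DDIT4, named after its values were seen, was the gene that fell with rimonabant (-0.72, adjusted p = 4.24e-05).

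Of 27 ERAD genes tested, 19 rose and 3 fell with TXX-1-10 (median log2 fold change 0.30), against 33.9% and 39.8% of all genes, and 18 rose and 0 fell with rimonabant (median 0.22), none of them past a log2 fold change of 1. MAN1A1, a mannosidase that trims N-glycans, rose by 0.90 with TXX-1-10, SYVN1 (HRD1), the ubiquitin ligase that HERPUD1 assists, by 0.82, HERPUD2, the paralogue of HERPUD1, by 0.81 and SEL1L, the partner of SYVN1, by 0.75 (all adjusted p at most 3.02e-05). With rimonabant the log2 fold changes of these genes were 0.53, 0.49, 0.23 and 0.22, of which that of SEL1L did not pass (adjusted p = 0.0676).

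Of 39 folding factors tested outside the 10, 11 rose and 12 fell with TXX-1-10 (median -0.06), against 33.9% and 39.8% of all genes, and 13 rose and 5 fell with rimonabant (median 0.08), against 24.2% and 21.9%. ERO1B, an ER oxidase, rose by 1.16 with TXX-1-10 and by 0.92 with rimonabant, and CRELD1, the membrane-bound relative of CRELD2, rose by 0.82 and 0.35. TMX3, a membrane-bound disulfide isomerase, fell by 1.18 and 0.55, and UGGT1, the glycoprotein glucosyltransferase that marks unfolded proteins for refolding, fell by 0.79 and 0.38. All of these values on the log2 scale passed the test.

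Of 29 genes tested for entry into the ER and for N-glycosylation, 3 rose and 15 fell with TXX-1-10 (median -0.21), against 33.9% and 39.8% of all genes, and 8 rose and 3 fell with rimonabant (median 0.05). RPN2 and STT3B, subunits of the oligosaccharyltransferase, fell with TXX-1-10 by 0.61 and 0.47, while DAD1, another subunit, rose by 0.50 and SEC11C, of the signal peptidase, by 0.74. With rimonabant the values of RPN2, STT3B, DAD1 and SEC11C were -0.19, -0.12, 0.39 and 0.47, of which that of STT3B did not pass (adjusted p = 0.117, edgeR). Among cytosolic and mitochondrial chaperones, 8 of 21 rose and 7 fell with TXX-1-10 (median -0.06), near the 33.9% and 39.8% of all genes, and 10 rose and 3 fell with rimonabant (median 0.13). The inducible Hsp70 genes HSPA1A and HSPA1B, near-identical copies whose reads may be split between them, rose by 2.30 and 2.21 with TXX-1-10, and their co-chaperone DNAJB1 by 0.83. TRAP1, the mitochondrial Hsp90, fell by 1.04. With rimonabant the log2 fold changes of HSPA1A, HSPA1B, DNAJB1 and TRAP1 were 0.90, 1.18, 0.28 and -0.47, and all passed the test.

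**Figure D4:**
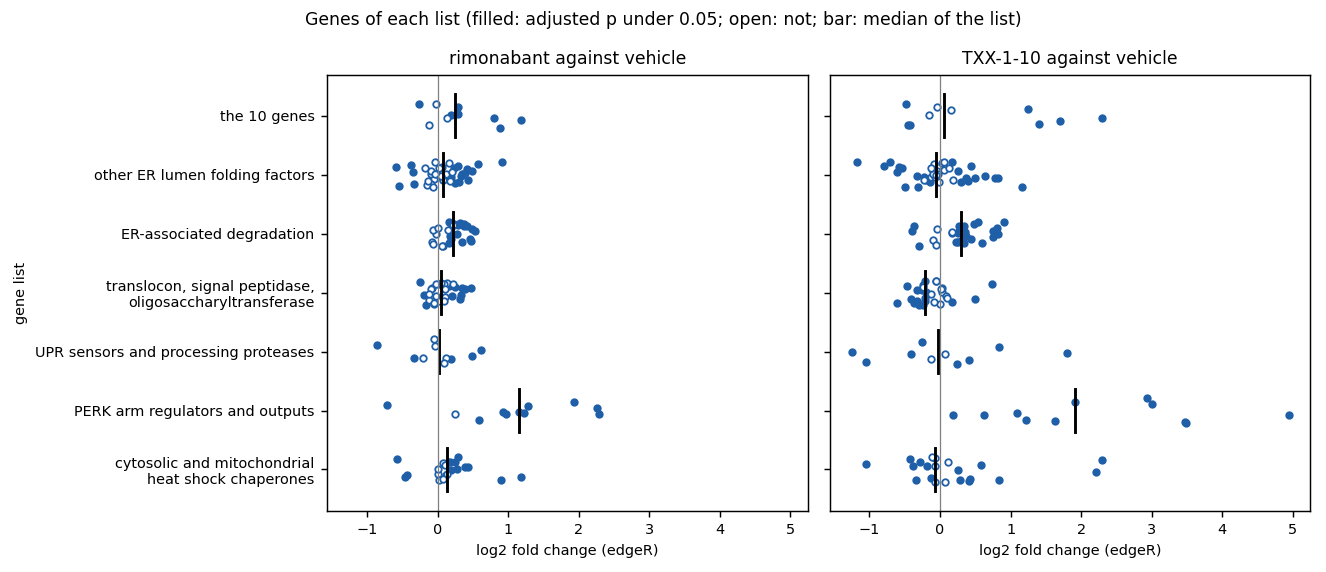
Log2 fold change (horizontal axis) of every tested gene of the 7 lists named on the vertical axis (the marker lists are not drawn), for rimonabant and TXX-1-10 against vehicle. Points are genes (filled where the adjusted p was under 0.05), bars are list medians, and vertical scatter within a list has no meaning; the PERK arm list has medians of 1.15 with rimonabant and 1.92 with TXX-1-10, and the other 6 lists drawn have medians between -0.21 and 0.30.

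Outside these lists, the genes whose log2 counts, scaled to the library total, followed HSPA5 most closely over the 9 libraries, among 4229 genes, were SPRY2, TSC22D1, MKNK2, SAT1 and VAT1, with Pearson r from 0.996 to 0.999. SPRY2 went from 16.9 ± 0.5 FPKM with vehicle to 19.4 ± 0.6 with rimonabant and 40.7 ± 2.2 with TXX-1-10 (SD, n = 3), so that it too rose mainly with TXX-1-10. Those closest to XBP1 were YIPF4, FTL, PSAT1, NFKBIB and TFPI2, with r from 0.995 to 0.998. PSAT1, an enzyme of serine synthesis, went from 61.9 ± 1.7 FPKM to 102 ± 4 and 140.2 ± 7.2, with a step at each compound as in XBP1. These correlations are descriptions over 9 libraries in 3 treatments, with no test.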

How the data were processed

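RNA of MDA-MB-231 cells was selected with oligo(dT), made into NEBNext Ultra libraries and sequenced on an Illumina platform (9 libraries, 3 per treatment, grouped by sample title). The submitters' processing notes name HISAT2 2.0.5 and featureCounts 1.5.0-p3. For each gene the authors deposited a whole-number count, not normalized, and an FPKM value, which is that count divided by gene length and a library total. That total, worked out from each gene's 3 values, was used as library size. The listed counts do not add up to it, and the reads it covers are not given in the sources used here. They exceeded it in vehicle replicates 1 and 3 (17492638 against 17078370 in replicate 1) and fell short in every other library. In TXX-1-10 replicate 2 they were 16836181 against 18394759. The mismatch thus differed between treatments, which may shift the TXX-1-10 values as a whole. Under TMM scaling the TXX-1-10 log2 fold changes against vehicle were 1.34 for HSPA5 and -0.38 for PDIA6, in place of 1.24 and -0.478. The lists as used here end at different genes, each with 1 unfinished line dropped, so 4237 genes are in all 9 and 9397 in the 8 other than rimonabant replicate 1. Genes missing from more libraries were not analysed here.

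Counts were tested with edgeR 4.0.16 in R 4.3.3 (estimateDisp, glmQLFit, glmQLFTest), with a mean FPKM of at least 1. There were 4236 genes in a fit of 9 libraries (biological coefficient of variation 0.0696) and a further 5133 in a fit of 8 (0.0604), with Benjamini-Hochberg adjustment once per comparison over all 9369. Standard errors are the log2 fold change over the square root of the F statistic and are approximate. Simulated counts for TXX-1-10 against vehicle gave back 100 of 100 genes changed 1.5-fold among 4236, and 99 of 100 among 9369, with 6 and 16 false calls. The simulation used the common spread of the same fit and held no length trend. It checks the code and cannot show how many calls are false in these libraries.

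Coordinates of 27603 of the 27615 genes equal GENCODE release 29 (GRCh38), and those of the 10 genes all do. Promoters are RefSeq's (GRCh38.p14). The alternatives were TMM, DESeq2 1.42.0, limma 3.58.1 on log2(FPKM + 1), no filter or a mean FPKM of at least 5, 8 libraries for every gene, genes of all 9 lists only, fits of 2 groups, the replicate number as a block, a length correction (lowess, span 0.3) with and without the block, each library left out, and the pair that stood apart left out. Named genes are the 10, ERN1, EIF2AK3, ATF6, ATF4 and DDIT3, up to 4 of each list with the largest change against vehicle among those past the test and without overlap between replicates, and the 5 genes most like HSPA5 and the 5 most like XBP1. Genes, lists and tests were chosen with earlier results of these data known. Python 3.11.15, pandas 2.3.3, scipy 1.17.1 and matplotlib 3.10.9 were also used.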

Additional observations from a re-analysis of the deposited data

How the results depend on the processing

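Over all 9369 genes 6904, 4317 and 5659 were called in TXX-1-10 against vehicle, rimonabant against vehicle and TXX-1-10 against rimonabant. With genes of all 9 lists only, from which DNAJB9, SDF2L1 and CRELD2 are missing, these were 3151, 2071 and 2732, with 5 of the 10 genes called between the compounds, 2 lower, 1 higher past a log2 fold change of 1, and 0 past it with rimonabant. Genes lower with rimonabant were 2 in place of 1 with DESeq2, with 8 libraries for every gene, with the length correction (alone or with the block) and without the pair that stood apart, PDIA4 being added.

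With 1 library left out, the genes called with rimonabant ranged from 4 to 8, those higher from 3 to 6 and those lower from 1 to 2, and those past a log2 fold change of 1 in TXX-1-10 over rimonabant from 1 to 2. The sign of SDF2L1 with TXX-1-10 against vehicle turned from -0.04 to 0.0101 with TMM, 0.0054 with DESeq2, 0.112 with the length correction, 0.112 with that correction and the block, and 0.000126 without TXX-1-10 replicate 2 (-0.0849 to 0.000126 over the 9 libraries left out). MANF between the compounds turned from -0.13 to 0.0167 with the length correction and 0.0155 with the block added. None of these passed the test. Of 618 values of the 10 genes under alternatives, 573 kept direction and side of the threshold, 21 gained a call and 17 lost one. TMM moved the median of all genes by 0.07 in TXX-1-10 against vehicle.

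Deviations of same-numbered libraries did not agree (Pearson r -0.789 to 0.828 over the 9 pairs), so the numbers were not taken to pair the libraries. With the replicate block 6837, 4007 and 5456 genes were called, and 7, 7 and 8 of the 10. Genes with few reads lie beyond the ends of the lists, and with 2 or 3 libraries a group, differences near those of MANF and SDF2L1 depended on single libraries.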
